A study of Mus musculus with 17 samples.

Results

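The genes described here encode the proteins of the cytosolic ribosome in mouse embryonic stem cells. Members were the protein-coding rows with a large- or small-subunit ribosomal protein symbol (an Rpl or Rps symbol with a number, Rplp0, Rplp1, Rplp2 or Rpsa) and a mean level of at least 10 TPM (a length- and depth-scaled unit that sums to 1000000 in each library) over all 17 libraries. The rule found 81 members among 54532 rows, 49 of the large and 32 of the small subunit. Of 83 protein-coding rows with such a symbol, Rpl39l (mean 9.32 TPM) and Rpl3l (mean 3.32 TPM) fell below the threshold, and the members nearest above it were Rpl29 (16.3 TPM) and Rpl34 (19.5 TPM). The study asked whether Usb1, an enzyme that trims the end of the spliceosomal U6 RNA, is required for pluripotency. RNA of R1 embryonic stem cells, wild-type (WT) or with Usb1 knocked out (KO), was sequenced before retinoic acid (RA; day 0) and after 1 and 3 days of RA, which makes these cells differentiate. WT at day 0 had 2 libraries and the other 5 groups had 3 each, described by the study as biological replicates. All KO libraries came from the CRISPR line KO-1, so the knockout and the history of that clone cannot be told apart.

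A ribosome is built from ribosomal RNA and one copy of most of these proteins, so their mRNAs are among the most abundant in any growing cell. Most ribosomal protein mRNAs, and those of several translation factors, start with a run of pyrimidines, the terminal oligopyrimidine (TOP) motif, through which mTOR signalling and LARP1 set their translation and stability. The family also has many processed pseudogenes, which are copies of spliced mRNAs inserted elsewhere in the genome. It has a few intact paralogs (Rpl10l, Rpl22l1, Rpl7l1, Rps27l, Rpl39l, Rpl3l), some of which can stand in for their parent. In bulk RNA, fewer cells of a type and less RNA per cell cannot be told apart, and TPM is a share, so the values do not measure ribosomal protein mRNA per cell.

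The first bases of members that changed are shown to let the pyrimidine run be seen. Each window runs from 10 bases before to 20 bases from the RefSeq start (GRCm38.p6), 5′ to 3′ on the gene's strand, with the longest C/T run in capitals where there is one of at least 5 bases.
Rpl38, chr11:114668570-114668599, plus strand: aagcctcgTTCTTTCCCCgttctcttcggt
Rpl15, chr14:18270967-18270996, minus strand: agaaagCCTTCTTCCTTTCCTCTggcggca
Rpl22l1, chr3:28805498-28805527, plus strand: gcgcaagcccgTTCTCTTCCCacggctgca
Rpl10l, chr12:66284382-66284411, minus strand: CCTCCattttgcggctggcggtgggcacgc
Rpl7l1, chr17:46782637-46782666, minus strand: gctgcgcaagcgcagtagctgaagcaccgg
The windows of Rpl38, Rpl15 and Rpl22l1 hold a run at or next to the start, that of Rpl10l holds a short run before the start, and that of Rpl7l1 holds none. RefSeq promoters matched 61 of the 81 members. The letters CTTTC, searched on the sense strand within 25 bases on either side of the start, were in 17 of the 61 (27.9%) and in 5.87% of 16497 protein-coding promoters. CCGGAAG, the core of sites bound by ETS factors such as GABPA, was in 24 of the 61 on either strand over the 300 bases (39.3%, against 12.3% of all promoters). AAGATGG, a core of YY1 sites, was in 9 (14.8% against 6.43%), and TATAAA within the 50 bases before the start was in 1 (1.64% against 3.42%). These matches are descriptions of the windows.

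The paralog pairs and the copies that share reads are shown by their first or most similar coding stretch, with bases that differ within a pair in capitals (GENCODE M21 transcripts, GRCm38).
Rpl10, coding bases 1 to 60: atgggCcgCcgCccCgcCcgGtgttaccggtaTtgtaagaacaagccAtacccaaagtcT
Rpl10l, coding bases 1 to 60: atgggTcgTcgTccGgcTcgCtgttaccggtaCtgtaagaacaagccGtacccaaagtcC
Rpl22, coding bases 176 to 235: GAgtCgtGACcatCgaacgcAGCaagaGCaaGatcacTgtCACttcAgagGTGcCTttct
Rpl22l1, coding bases 158 to 217: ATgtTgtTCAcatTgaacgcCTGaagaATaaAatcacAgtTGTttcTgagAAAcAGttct
Rps27 and Rps27rt, coding bases 1 to 60: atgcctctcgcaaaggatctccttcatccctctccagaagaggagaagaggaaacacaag
Rpl34 and Rpl34-ps1, coding bases 1 to 60: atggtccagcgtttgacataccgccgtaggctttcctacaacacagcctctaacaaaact
Rpl10 and Rpl10l shared 84.8% of 645 coding bases and Rpl22 and Rpl22l1 75.9% of 294 aligned bases, so reads separate these pairs. Rps27 and Rps27rt, an intronless copy at chr9:114982366-114982739 on the minus strand, were identical over all 255 coding bases, and Rpl34 and its pseudogene Rpl34-ps1 over 352 of 354, so reads within them largely do not.

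Depth was even, with 15404379 to 17300186 reads on genes per library, but WT replicate 1 at day 0 stood apart: 239 genes had exactly 1 read there, against 1352 in WT replicate 2 at day 0, 1224 in KO replicate 1 at day 3 and 2150 to 2467 in the others. Usb1 mRNA was lower in the KO libraries at each day, with 40.0 and 37.1 TPM in WT and 15.5, 15.2 and 17.9 TPM in KO at day 0 (log2 fold change -1.20 ± 0.12 (SE), adjusted p = 3.23e-05 in limma). The 6 embryonic stem cell markers measured were Pou5f1, Nanog, Sox2, Esrrb, Zfp42 and Klf4. At day 0 they summed to 5063 to 5152 TPM in WT and 4927 to 5394 TPM in KO. At day 1 the sums were 2836 to 2922 TPM in WT and 3587 to 3678 TPM in KO. At day 3 they were 312 to 353 and 510 to 578 TPM. KO was thus higher without overlap on both RA days, although Sox2 was lower in KO at day 1 and Klf4 at day 3. The part of this in the members' genotype differences on those days was not tested. Fibroblast markers summed to 4.65 to 9.01 TPM up to day 1 and to 44.5 to 80.3 TPM at day 3, with Postn and Lum under 1 TPM, and the 3 blood markers summed to at most 0.523 TPM.

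Levels spanned 2 to 3 orders of magnitude. Mean TPM ran from 16.3 (Rpl29) to 6389 (Rplp1, an acidic protein of the ribosomal stalk), with a median of 727, and 30 members were above 1000 TPM. After Rplp1, the highest were Rpl8 (3096 TPM) and Rpl4 (2928 TPM), both core proteins of the large subunit. The lowest were Rpl29, Rpl34 and Rpl24, and a low value is not a low mRNA where copies take the reads: of the reads on Rpl34 and its named pseudogenes, 4.80% were on Rpl34, and the pseudogene Rpl34-ps1 was listed at 2873 TPM. The gene itself also held a minority of its family's reads for Rps10 (9.44%), Rps3a1 (23.5%), Rpl21 (35.7%) and Rpl17 (45.1%). Rpl29 differed, with 93.2% of its family's reads on the gene. Replicates of a group had a median SD of 0.125 on the log2 scale, and 6 members exceeded 0.3: Rpl21 (0.67), Rps27a (0.57), Rpl17 (0.43), Rps27 (0.42), Rpl24 (0.40) and Rpl7a (0.35).

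Summed over the 81 members, ribosomal protein genes made up 7.17% ± 0.05 (SD, n = 2) of all TPM in WT and 8.81% ± 0.58 (n = 3) in KO at day 0. At day 1 the shares were 7.81% ± 0.28 in WT and 9.34% ± 0.65 in KO, and at day 3 they were 6.44% ± 0.53 and 7.03% ± 0.81 (n = 3 each). The KO libraries lay above all WT libraries at day 0 (8.17 to 9.30% against 7.14 and 7.21%) and day 1 (8.95 to 10.1% against 7.50 to 8.03%), and the genotypes overlapped at day 3 (6.30 to 7.90% against 5.84 to 6.85%). KO was 1.23-fold WT at day 0 for the large subunit and 1.22-fold for the small, so the subunits moved together. Over time they did not move equally: the ratio of large- to small-subunit TPM was 1.58 ± 0.04 in WT and 1.59 ± 0.01 in KO at day 0, and 1.47 ± 0.01 and 1.44 ± 0.01 at day 3.

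**Figure D1:**
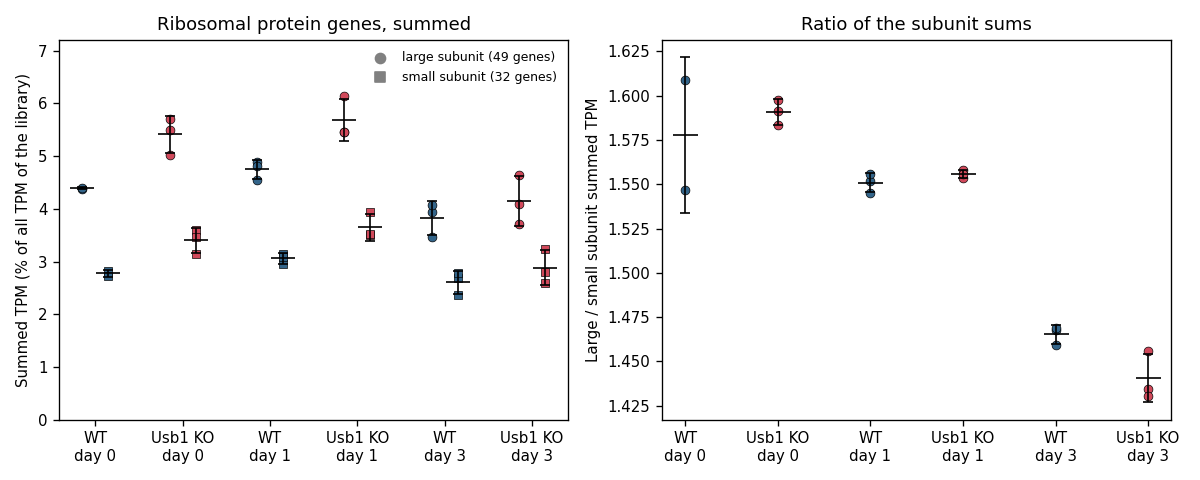
Left, summed TPM of the 49 large-subunit (circles) and 32 small-subunit (squares) genes as a percent of all TPM, 1 point per library, blue for WT and red for Usb1 KO, with bars for mean and SD. Right, the ratio of the sums per library (the axis does not start at 0), which was 1.55 to 1.61 at day 0 and 1.43 to 1.47 at day 3.

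Before RA, ribosomal protein genes were higher in KO than in WT cells. Of the 81 members, 29 were higher and 0 were lower at an adjusted p under 0.05, against 5.08% higher and 6.80% lower of all 21871 genes tested. The median log2 fold change of the members was 0.27 and that of all genes was 0.00. For 58 members every KO library lay above every WT library, which held for 15.3% of all genes. This count leaned on the shared estimate of spread: fitted on the 5 day 0 libraries alone it was 1, and with all groups but without WT replicate 1, KO replicate 2 or KO replicate 3 at day 0 it was 11, 12 and 14.

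Rps29, a zinc-binding protein of the small subunit, stood at 219 and 275 TPM in WT and at 426, 575 and 501 TPM in KO. KO was higher by 1.01 ± 0.20 (log2 fold change ± SE, adjusted p = 0.00564), with no overlap between genotypes, but without WT replicate 1 the adjusted p was 0.0709. Rpl38, a large-subunit protein known for its part in translating Hox mRNAs, stood at 270 and 326 TPM in WT and at 512, 611 and 537 TPM in KO. It rose by 0.89 ± 0.13 (adjusted p = 0.000817), and without WT replicate 1 by 0.76 (adjusted p = 0.0166). Among other members called at day 0, the small-subunit proteins Rps14, Rps16 and Rps18 rose by 0.71 ± 0.12, 0.50 ± 0.09 and 0.45 ± 0.07. The genotypes did not overlap for any of them: Rps18 stood at 849 and 869 TPM in WT and at 1141, 1207 and 1181 TPM in KO. Rpl7a, which hosts small nucleolar RNAs in its introns, stood at 206 and 426 TPM in WT and at 505, 627 and 603 TPM in KO (0.96 ± 0.29, adjusted p = 0.0449). Its WT libraries differed widely, and without WT replicate 1 the change was 0.43 (adjusted p = 0.444).

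Coding length moved with the day 0 difference. Of the 81 members, 19 have a coding sequence of at most 360 bases (longest annotated, without the stop codon; this limit was chosen after the values were seen). Their median log2 fold change between genotypes at day 0 was 0.42, and that of the 62 longer members was 0.25. Among the other protein-coding genes of at least 10 TPM, the medians were 0.18 for 328 short and -0.06 for 8824 longer genes. Spearman's rho between coding length and fold change was -0.53 over the 81 members at day 0, 0.23 at day 1 and 0.43 at day 3, across genes that share the same libraries and are not independent. By library, the short members lay below the longer ones by 1.54 and 1.21 on the log2 scale in WT at day 0 and by 0.46 to 0.89 in the other 15. As a share of the members' TPM, the short members held 20.6% and 21.7% in the WT day 0 libraries. That share was 20.9% in KO replicate 3 at day 3 and 22.3 to 25.8% in the others. By the difference of medians, though not by this share, they stood lower in both WT day 0 libraries than in any other. Every comparison with these libraries carries that offset of the medians. Its part in the results was not tested. Of the 29 members called at day 0, 8 were short and 21 longer.

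**Figure D2:**
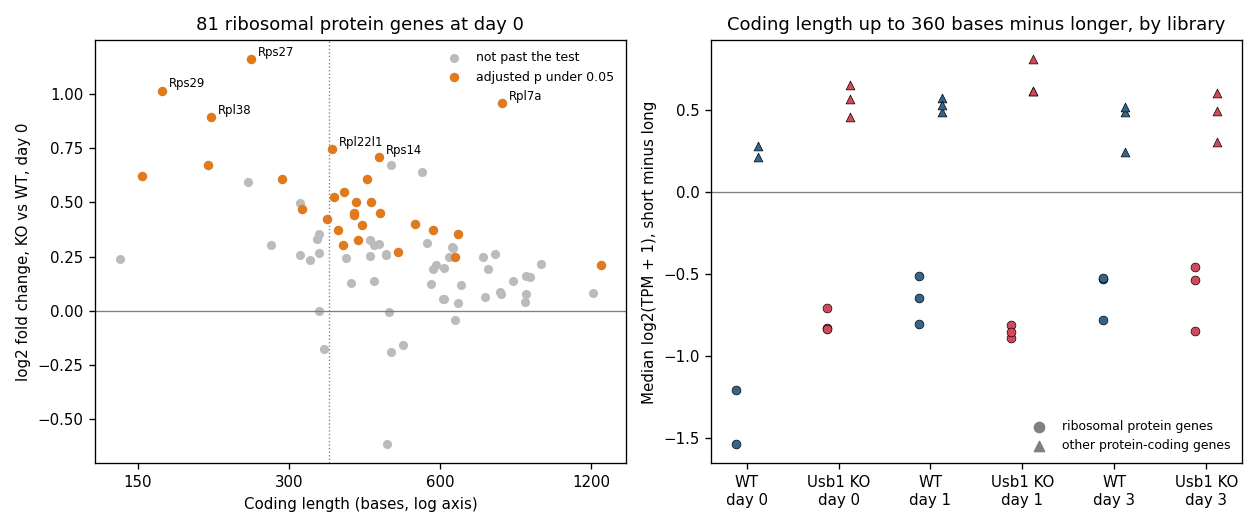
Left, log2 fold change of KO against WT at day 0 for each member by coding length (log axis, dotted line at 360 bases), orange where the adjusted p was under 0.05. Right, the median log2(TPM + 1) of genes with a coding sequence up to 360 bases minus that of longer genes, 1 point per library (blue WT, red KO), for members (circles) and other protein-coding genes (triangles); the WT day 0 libraries are the lowest for the members, at -1.54 and -1.21.

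Rps27 had the largest day 0 fold change, 1.16 ± 0.35 (adjusted p = 0.0442), and its TPM alone cannot be read as a change. Its 128 and 238 TPM in WT and 297, 608 and 328 TPM in KO depended on how reads were placed between Rps27 and the identical Rps27rt. Rps27 held from 27.8% to 93.4% of the pair's reads over the 17 libraries, and replicates of the same group differed widely, from 45.1% to 88.7% in WT at day 1 and from 53.1% to 93.4% in KO at day 0. Summed over the pair, reads scaled to 1000000 per library were 142 ± 6.96 (SD) in WT and 186 ± 16.8 in KO at day 0, 198 ± 12.9 and 221 ± 17.4 at day 1, and 182 ± 19.7 and 202 ± 41.2 at day 3. Over the libraries Rps27 TPM ranged 4.76-fold and the pair's reads 1.79-fold. The pair was therefore lowest in WT at day 0, and the sizes of the changes listed for Rps27 below depend on the split. The rise listed for Rps27 in KO from day 1 to day 3 was not seen in the pair's reads. In WT the pair's reads were 137 and 147 at day 0 and 190 to 213 at day 1, so a rise over that step was also seen in their sum.

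**Figure D3:**
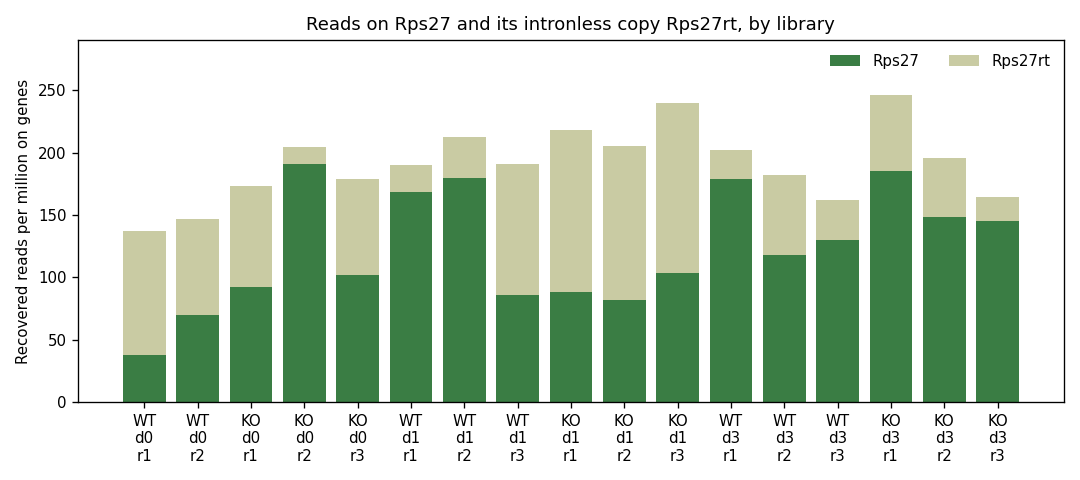
Reads, scaled to 1000000 per library, on Rps27 (green) and on its intronless copy Rps27rt (light), recovered from TPM, stacked for each of the 17 libraries (genotype, day, replicate). The height of the stack ran from 137 to 246, while the share on Rps27 ran from 27.8% to 93.4%.

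After 1 day of RA the family was again higher in KO cells. Of the 81 members 25 were higher and 0 lower (3.74% and 13.6% of all genes), with a median of 0.25 against -0.13 for all genes, and for 65 members every KO library lay above every WT library (9.41% of all genes). All 25 were among the 62 longer members. The count was 9 under quantile normalization, with a median of 0.13 against 0.01 for all genes, and 50 with voom on recovered reads. The fit on the 6 day 1 libraries alone, unlike that at day 0, kept the count within 1.5-fold. It was 7 without WT replicate 1 and 7 without KO replicate 3 at day 1. Of the members called at day 1, 14 were also called higher at day 0 (48.3% of the 29 and 56% of the 25). Of all 81 members, 35.8% were called higher at day 0 and 30.9% at day 1.

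Rpl22l1, the paralog of Rpl22, had the largest genotype difference at day 1. It stood at 66.0, 78.3 and 76.1 TPM in WT and at 124, 111 and 149 TPM in KO, which is 0.79 ± 0.11 higher in KO on the log2 scale (adjusted p = 0.000251). At day 0 it stood at 69.9 and 69.5 TPM in WT and at 112, 120 and 121 TPM in KO (0.74 ± 0.12, adjusted p = 0.0018), and at day 3 at 75.5 to 85.7 TPM in WT and 88.5 to 115 TPM in KO (0.35 ± 0.11, adjusted p = 0.0706). No library of one genotype overlapped the other on any day. Its parent Rpl22 differed less, by 0.30 ± 0.09 at day 0 (adjusted p = 0.0402), 0.18 ± 0.08 at day 1 (adjusted p = 0.149) and 0.19 ± 0.08 at day 3 (adjusted p = 0.209). Rps14 (0.51 ± 0.11, adjusted p = 0.00648) and Rpl7 (0.37 ± 0.08, adjusted p = 0.00729) were next by size among the members called at day 1. Rps14 stood at 1437, 1564 and 1540 TPM in WT and at 2035, 2065 and 2376 TPM in KO at that time.

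At day 3 the genotype difference was smaller. Of the 81 members 7 were called higher and 0 lower (3.96% and 3.56% of all genes), all of the large subunit: Rpl10l, Rpl5, Rpl15, Rpl7, Rpl12, Rpl3 and Rpl4, by log2 fold changes of 0.23 to 0.35. The median was 0.13 over the members, 0.12 for the large and 0.14 for the small subunit, and 0.00 over all genes, and the genotypes did not overlap, with KO higher, for 17 members (11.0% of all genes). The fit on the 6 day 3 libraries alone called 0 members, and the count was 1 without WT replicate 3, 2 without WT replicate 1 or KO replicate 1 and 12 without KO replicate 2 of that day. Rpl4 and Rpl12, the latter a protein of the stalk base, were called higher in KO on all 3 days. Rpl4 stood at 2866 and 2886 TPM in WT and at 3151, 3441 and 3394 TPM in KO at day 0, and at 2228, 2287 and 2173 TPM in WT and 2756, 2481 and 2592 TPM in KO at day 3. Its log2 fold changes were 0.21 ± 0.06, 0.21 ± 0.05 and 0.23 ± 0.05 on days 0, 1 and 3, and under quantile normalization the day 1 value turned to -0.10. The day 0 value of Rpl4 was 0.09 under quantile normalization (adjusted p = 0.536 in limma). On the day 0 libraries alone neither Rpl4 (adjusted p = 0.391) nor Rpl12 (adjusted p = 0.174) passed.

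**Figure D4:**
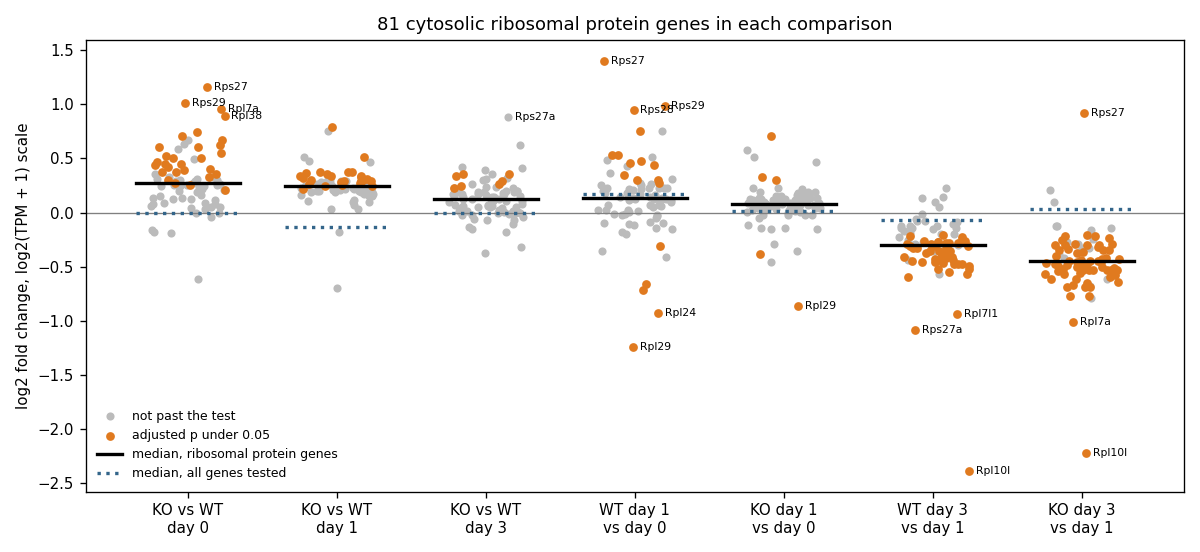
Log2 fold change of each of the 81 members in 7 comparisons, orange where the adjusted p was under 0.05 in limma, with the median of the members (black) and of all genes tested (dotted). The members' median is above that of all genes in the 3 genotype comparisons and below it from day 1 to day 3 in WT and KO.

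From day 0 to day 1 of RA the family changed little as a whole. In WT 13 members rose and 5 fell (25.5% and 12.5% of all genes), with a median of 0.14 against 0.17 for all genes. With each library scaled to an equal median over all genes, the split was 4 higher and 7 lower, so the direction of the family in WT depended on the scaling. In KO 3 rose and 2 fell (16.0% and 11.7% of all genes), with a median of 0.08 against 0.02, and scaled to an equal median 1 rose and 2 fell. Rpl10l and Rpl23a rose, and Rpl29 and the Rpl34 row (without its copies) fell, in both genotypes. With each library scaled to an equal median Rpl23a passed in neither genotype. Rpl29, a large-subunit protein also known as a heparin-binding protein, stood at 35.1 and 25.5 TPM in the WT libraries of day 0 and at 12.3, 11.5 and 12.5 TPM in those of day 1 (-1.24 ± 0.14, adjusted p = 8.11e-06). It stood at 24.6, 29.2 and 24.9 TPM in KO at day 0, against 15.8, 14.8 and 11.6 TPM on day 1 (-0.86 ± 0.12, adjusted p = 0.000116). Groups did not overlap in either genotype.

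The members that rose in WT at day 1 included 7 of the 19 with short coding sequences and 6 of the 62 longer ones, beside the offset of the WT day 0 libraries described above. Among the other protein-coding genes of at least 10 TPM, 155 of 328 short and 2959 of 8824 longer genes rose. Rps29 rose by 0.98 ± 0.20, Rps28 by 0.95 ± 0.21 and Rpl38 by 0.76 ± 0.13 in WT, and none of them passed the test in KO. Rps28 stood at 103 and 142 TPM in WT at day 0, at 223 to 244 TPM in WT at day 1, and at 166 to 210 TPM in KO at day 0. Rps27 was listed at 1.40 ± 0.35. Rpl24 (-0.93 ± 0.33) and Rps10 (-0.72 ± 0.15) fell in WT. Added to its pseudogenes, which hold most of the family's reads, Rps10 had a log2 fold change of 0.10 in WT. Rpl34, with -0.66 on its own row in WT and -0.39 in KO, had 0.46 (adjusted p = 0.00173) and 0.11 (adjusted p = 0.393) with its copies, so the falls of both genes concern the gene's own row. With its copies Rpl34 stood at 2147 and 2284 TPM in WT at day 0 and at 2930, 3175 and 3063 TPM a day later.

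From day 1 to day 3 most of the family fell in both genotypes. In WT 49 members fell and 0 rose (24.3% and 19.5% of all genes), with a median log2 fold change of -0.30 against -0.07 for all genes. In KO 63 fell and 1, Rps27, rose (19.4% and 25.5% of all genes), with a median of -0.45 against 0.04. The same 46 members fell in both, 93.9% of those called in WT and 71.9% of those called in KO. Of all 81 members, 77.8% were called lower in KO and 60.5% in WT, so much of this overlap follows from the counts. These comparisons share no library but use the same estimate of spread. The median fall was 0.33 for the large and 0.27 for the small subunit in WT, and 0.51 and 0.34 in KO. The WT count was 30 without WT replicate 3 at day 3 and 23 with libraries scaled to an equal median.

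Rpl10l fell most. This intronless autosomal paralog of the X-linked Rpl10, known for replacing it in male meiosis, stood at 145, 146 and 149 TPM in WT at day 1 and had fallen to 23.7, 31.2 and 27.2 TPM by day 3 (-2.39 ± 0.10, adjusted p = 6.53e-11). In KO it went from 164, 159 and 181 TPM to 31.4, 37.4 and 36.6 TPM (-2.23 ± 0.10, adjusted p = 1.27e-10). It had risen from day 0 to day 1, from 114 and 97.8 TPM in WT (0.47 ± 0.11) and from 98.5, 109 and 99.9 TPM in KO (0.71 ± 0.10). Rpl10 itself fell by 0.44 ± 0.06 in WT and 0.51 ± 0.06 in KO from day 1 to day 3, and stayed the more abundant on every day (760 to 1416 TPM over the libraries). Rpl7l1, a paralog of Rpl7 with a part in ribosome assembly, stood at 203 to 240 TPM in all 11 libraries of days 0 and 1 and at 110 to 138 TPM in the 6 of day 3. Its fall was -0.94 ± 0.06 in WT (adjusted p = 1.12e-08) and -0.78 ± 0.06 in KO (adjusted p = 8.93e-08), while Rpl7 fell by 0.36 ± 0.08 and 0.44 ± 0.08.

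**Figure D5:**
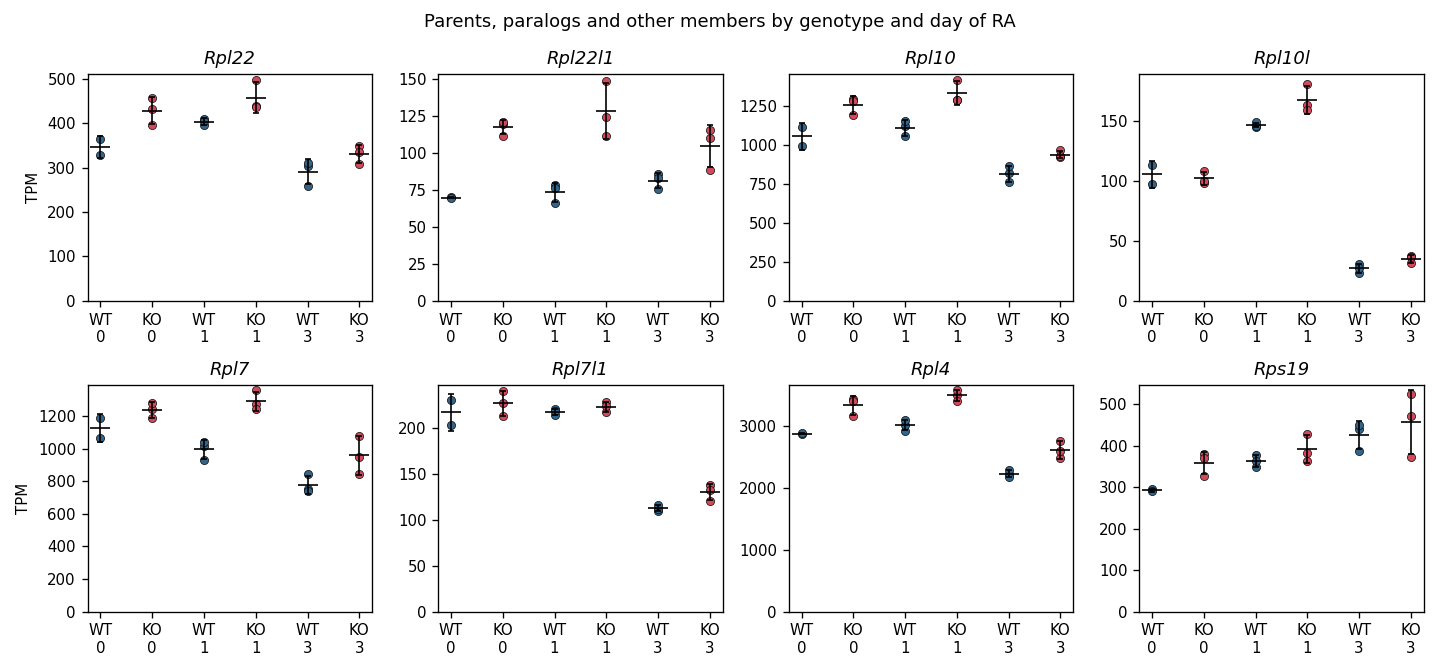
TPM of 3 parents, their paralogs, Rpl4 and Rps19 in each library by genotype and day of RA (blue WT, red Usb1 KO), with bars for mean and SD; each panel has its own axis from 0. Rpl10l and Rpl7l1 drop at day 3 in both genotypes, and Rpl22l1 lies higher in KO than in WT.

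Other large falls from day 1 to day 3 were less uniform. Rps27a, a fusion of ubiquitin and a small-subunit protein, was listed at -1.08 ± 0.41 in WT (adjusted p = 0.0463), with 496, 471 and 159 TPM at day 3 against 646, 756 and 728 TPM at day 1, so that 1 library set its size. Rpl7a fell by 1.01 ± 0.26 in KO (adjusted p = 0.00485), from 480, 549 and 842 TPM to 271, 249 and 401 TPM. Rpl27 fell by 0.78 ± 0.10 in KO, from 1081, 1102 and 1232 TPM to 725, 716 and 562 TPM.

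Over the whole course, from day 0 to day 3, 31 members fell and 8 rose in WT (22.5% and 29.6% of all genes), and 52 fell and 1 rose in KO (21.8% and 29.7% of all genes). The WT counts were 21 and 4 on the WT libraries of these days alone with both day 0 libraries, and 25 calls in all were made with all groups but without WT replicate 1 at day 0. The same 28 members were called in the same direction in both genotypes (71.8% of the 39 and 52.8% of the 53). Of all 81 members, 38.3% were called lower in WT and 64.2% in KO. The median was -0.17 in WT and -0.35 in KO, and 0.10 and 0.03 over all genes. The member that rose in KO, Rps19, also rose in WT. Rps19, a small-subunit protein whose human gene is mutated in Diamond-Blackfan anaemia, went from 295 and 291 TPM to 441, 449 and 387 TPM in WT (0.53 ± 0.12, adjusted p = 0.00146) and from 327, 379 and 369 TPM to 525, 472 and 372 TPM in KO (0.34 ± 0.11, adjusted p = 0.0156). Its KO libraries overlapped between the days. Rpl17, Rpl21, Rpl37a, Rplp1 and Rps15 were called in none of the 12 comparisons.

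Grouped by role, the members differed in how much they moved. Among the stalk proteins, which recruit translation factors, Rplp0 was higher in KO at day 1 (0.28 ± 0.08, adjusted p = 0.025) and fell from day 1 to day 3 by 0.27 ± 0.08 in WT and 0.48 ± 0.08 in KO. Rplp2 fell by 0.56 ± 0.13 in KO and had -0.32 ± 0.13 in WT (adjusted p = 0.058), and Rplp1 passed no test, with 4936 to 7976 TPM over the libraries. Rpl5 and Rpl11 bind the small ribosomal RNA of the large subunit and can restrain Mdm2. Rpl5 fell from day 0 to day 3 in WT (-0.47 ± 0.09) and Rpl11 had -0.05 ± 0.11, whereas in KO Rpl11 fell (-0.35 ± 0.10) and Rpl5 had -0.20 ± 0.08 (adjusted p = 0.0524). No difference between the pair was tested. Rps6, the target of S6 kinase, was higher in KO at day 1 (0.29 ± 0.09, adjusted p = 0.0417) and fell from day 1 to day 3 in WT (-0.31 ± 0.09) and KO (-0.36 ± 0.09). Rpsa, the laminin-receptor protein of the small subunit, fell by 0.31 ± 0.08 and 0.30 ± 0.08 over the same step, and Rps26, at the mRNA exit channel, fell by 0.31 ± 0.10 in KO only by the test (-0.08 ± 0.10 in WT; the difference had an adjusted p of 0.344). Of the X-linked members, Rps4x was not called between genotypes, whereas Rpl10 was higher in KO on days 0 and 1, and Rpl36a and Rpl39 on day 0. Rpl39 has a short coding sequence, as does Rpl36a. The paralogs below the threshold, Rpl39l and Rpl3l, ranged from 1.28 to 20.7 TPM and from 0.236 to 6.96 TPM.

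Few of these changes were large. With a 2-fold minimum added, 2, 0 and 0 members were called between genotypes at days 0, 1 and 3 (3.05%, 2.22% and 1.29% of all genes). In WT 2, 2 and 4 were called for day 0 to 1, day 1 to 3 and day 0 to 3 (13.9%, 15.2% and 25.8%), and in KO 0, 2 and 2 (6.95%, 15.3% and 21.9%). For the interactions over the same steps the counts were 0, 0 and 1 (0.860%, 2.25% and 2.42%).

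The RA response of few members differed between genotypes. From day 0 to day 1 no member passed the interaction test in limma (2.23% of all genes did). An unadjusted p under 0.05 was found for 6 of the 81 members and for 3960 of all 21871 genes, a larger share. From day 1 to day 3 Rps18 alone fell more in KO, by 0.33 ± 0.09 on the log2 scale (adjusted p = 0.0471; 1.68% of all genes were called lower). This call was lost with the replicate block, on the compared libraries alone, with a pseudocount of 0.1, without a filter, scaled to an equal median and in 12 of the 17 fits that left out 1 library, with the same sign in each. From day 0 to day 3, 5 members fell more in KO than in WT (2.62% of all genes): Rps29 (-1.03 ± 0.27), Rpl38 (-0.84 ± 0.18), Rps14 (-0.66 ± 0.17), Rps16 (-0.48 ± 0.12) and Rps18 (-0.45 ± 0.10), with adjusted p of 0.0376, 0.0135, 0.0338, 0.0372 and 0.0191. Rps16 and Rps18 were named after their values were seen. Each of the 5 stood higher in KO at day 0 and near WT at day 3, which was not particular to them. Of the 29 members called between genotypes at day 0, 2 were also called at day 3. Rpl37, for example, had 0.61 at day 0 and 0.06 at day 3, and Rpl39 had 0.62 and 0.06. Rps16 stood at 1079 and 997 TPM in WT and 1398 to 1514 TPM in KO at day 0, and at 983 to 1164 TPM in WT and 981 to 1238 TPM in KO at day 3. None of the 5 passed without WT replicate 1 at day 0 or on the libraries of the comparison alone (adjusted p of 0.0616 to 0.126 in the latter), and the count of calls was 2 without KO replicate 2 or 3 of day 0 or WT replicate 1 or 2 of day 3, 3 without WT replicate 3 or KO replicate 2 of day 1, and 9 without WT replicate 2 of day 0 or KO replicate 1 of day 3. Spearman's rho between coding length and this difference was 0.62 over the 81 members.

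Of the 81 members, 30 hold small nucleolar RNA genes in their introns. The medians of hosts and other members were 0.26 and 0.29 between genotypes at day 0, 0.26 and 0.25 at day 1 and 0.17 and 0.11 at day 3. From day 1 to day 3 they were -0.36 and -0.28 in WT and -0.49 and -0.44 in KO. The difference was not tested.

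Other genes of ribosome production are given from lists drawn up for this description. Of 45 ribosome biogenesis factors tested, 38 fell and 1 rose in WT and 31 fell and 1 rose in KO from day 0 to day 1, when 12.5% and 11.7% of all genes fell. From day 0 to day 3, 42 fell in each (22.5% and 21.8% of all genes). Gnl3, the nucleolar protein nucleostemin, had means of 154 TPM in WT at day 0 and 55.7 TPM at day 1 (-1.45 ± 0.08). Rrp9, a component of the U3 particle that processes ribosomal RNA, fell by 1.93 ± 0.10 in WT and 1.84 ± 0.09 in KO from day 0 to day 3. At day 1, 18 of these factors were higher in KO and 0 lower (3.74% and 13.6% of all genes), with Nifk (0.78 ± 0.06) and Ncl (0.42 ± 0.05) at the top. At day 0, 5 were higher in KO and 3 lower (5.08% and 6.80% of all genes), with a median log2 fold change of -0.05. At day 3, 3 were higher and 1 lower (3.96% and 3.56%). Of 20 genes of RNA polymerase I and its factors, 17 fell in each genotype from day 0 to day 3 and 0 rose (22.5% and 21.8% of all genes fell), and Tcof1 fell most in both (-1.81 ± 0.10 and -1.73 ± 0.09).

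Translation factors and other TOP mRNAs (26 genes) included 14 higher and 1 lower in KO at day 1 (3.74% and 13.6% of all genes), and 13 higher and 0 lower at day 3 (3.96% and 3.56%). At day 0, 3 of them were higher and 2 lower in KO (5.08% and 6.80% of all genes), with a median log2 fold change of 0.07. Npm1, a nucleolar chaperone, was higher in KO at day 1 by 0.42 ± 0.07, and fell from day 0 to day 3 by 1.21 ± 0.08 in WT and 0.99 ± 0.07 in KO. From day 0 to day 3, 23 of the 26 fell in WT and 19 in KO (22.5% and 21.8% of all genes). Of the ribosomal genes with other names, Rack1 was higher in KO on days 1 and 3 (0.23 and 0.28). Mitochondrial ribosomal proteins, which build a separate ribosome, included 49 of 77 lower in WT and 58 in KO from day 1 to day 3 (24.3% and 19.4% of all genes) and 2 higher in each. Among 19 regulators of TOP mRNAs and ribosomal protein genes, Mycn fell by 2.24 ± 0.11 in WT from day 0 to day 1 and was higher in KO at day 1 (0.99 ± 0.09), as was Eif4ebp1 (0.74 ± 0.09), while 7 of the 19 were lower in KO (13.6% of all genes).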

How the data were processed

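The authors made NEBNext Ultra libraries from total RNA and deposited TPM, scaled by gene length and by each library's total. The submitters' processing notes name HISAT2 2.1.0, StringTie 1.3.6 and GRCm38.p6, and the read counter's settings are not given in the sources used here. Identifiers were matched to GENCODE M21 (54495 of 54532, 53921 with the same symbol). Reads recovered from TPM and exon length were whole within 0.01 for 95.9 to 96.7% of values. Comparisons used limma 3.58.1 (R 4.3.3) with a mean trend on log2(TPM + 1), which understates changes of low genes. All 17 libraries gave 6 group means, for 21871 genes of at least 1 TPM in 2 libraries, with Benjamini-Hochberg adjustment at 0.05. The fit was tested on simulated data. The members and gene lists were chosen with earlier results of these data known. Members were named from a set list, as the 3 largest rises and falls per comparison, and by level, and the other members named were picked after their values were seen (Rpl4, Rpl12, Rps16 and Rps18 among them). Single values of some genes are not reported here. Alternatives were another pseudocount, filter, scaling, a 2-fold minimum, the compared libraries alone, a replicate block and leaving out each library. Added after seeing the data were voom on recovered reads, members summed with their copies, protein-coding genes alone and coding length. Tables used Python 3.11.15 and pandas 2.3.3, coding alignments Biopython 1.88.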

Additional observations from a re-analysis of the deposited data

Results flagged for a closer look

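The change over RA differed between genotypes for 5 members from day 0 to day 3 by the interaction test in limma: Rps29 (log2 difference, KO minus WT, -1.03), Rpl38 (-0.84), Rps14 (-0.66), Rps16 (-0.48) and Rps18 (-0.45). From day 1 to day 3 it differed for Rps18 (-0.33), a call lost with the replicate block, on the compared libraries alone, with a pseudocount of 0.1, without a filter, scaled to an equal median and in 12 of the 17 fits that left out 1 library. None of the 5 calls to day 3 from day 0 held without WT replicate 1 at day 0. In each the member stood higher in KO than in WT at the start of the interval and near WT at day 3. Rpl38 and Rps29 have short coding sequences, a group low by its median in the WT day 0 libraries, and Rps14, Rps16 and Rps18 have longer ones. Their part in the result was not tested.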

How the results depend on the processing

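Counts of members called moved with the libraries fitted, the scaling, the filter and the fold minimum, and scaling to an equal median turned the median of the members in WT from day 0 to day 1 from 0.14 to -0.05. A 2-fold minimum left 2, 0 and 0 of the genotype calls at days 0, 1 and 3, 2 and 2 of the WT and KO calls from day 1 to day 3, 4 and 2 from day 0 to day 3, 2 and 0 from day 0 to day 1, and 0 and 1 of the interactions to day 3 from day 1 and day 0. Fitted on the compared libraries alone, counts were 1 and 0 for genotype at days 0 and 3, 25 for WT from day 0 to day 3, and 1, 0 and 0 for the interactions day 0 to 1, 1 to 3 and 0 to 3. Without a filter on low values they were 17 and 2 for genotype at days 0 and 3, and 0 and 2 for the interactions to day 3. Scaled to an equal median they were 17 and 0 for genotype at days 0 and 3, 11 and 3 for WT and KO at day 1, 23 for WT from day 1 to day 3 and 2 for the interaction from day 0 to day 3. Quantile normalization gave 9 for genotype at day 1, 28 (22 higher, 6 lower) for WT from day 0 to day 1, and 1 and 2 for the interactions to day 1 and from day 1 to day 3. A pseudocount of 0.1 gave 0 for the latter. With voom counts were 50 and 3 for genotype at days 1 and 3 and 1 and 2 for those interactions. With protein-coding genes alone they were 38 and 15 for genotype at days 1 and 3, 9 for KO at day 1 and 3 for the first interaction. With copies summed the interaction from day 1 to day 3 was 2.

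The replicate numbers did not pair the samples (mean correlation of same-numbered deviations -0.01, from -0.13 to 0.12 over 40 pairs). The replicate block gave 4 genotype calls at day 3 and 0 interaction calls from day 1 to day 3, and moved no other count by over 1.5-fold.

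Leaving out each library in turn gave 11 to 34, 7 to 37 and 1 to 12 genotype calls at days 0, 1 and 3. It gave 14 to 25, 30 to 53 and 25 to 44 in WT for day 0 to 1, 1 to 3 and 0 to 3, 4 to 8, 53 to 69 and 46 to 60 in KO, and 0 to 6, 0 to 2 and 0 to 9 for the interactions.

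The summed share became 9.05, 11.0, 9.79, 11.6, 7.999 and 8.85% of TPM with named pseudogenes, and 8.85, 10.8, 9.35, 11.3, 7.94 and 8.60% of protein-coding nuclear TPM, in WT and KO at day 0, WT and KO at day 1, and WT and KO at day 3.

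For 157 member changes under 28 alternatives, 3778 outcomes were the same, 609 kept their sign but did not pass, and 9 reversed. Of the 609, 142 came with the 2-fold minimum, 55 on the compared libraries alone, 40 at an equal median and 33 without a filter. The 9 reversals were as follows. Summed with Rps27rt, Rps27 was -0.14 between genotypes at day 0, -0.063 and -0.23 in WT at days 1 and 3 against day 0, and -0.63 in KO from day 1 to day 3. TPM weights each read on the shorter Rps27rt more, so this sum moves with the split, unlike the sum of reads. Summed with pseudogenes, Rps10 was 0.10 in WT from day 0 to day 1, and Rpl34 0.46 in WT and 0.11 in KO over the same step and 0.11 in WT from day 0 to day 3. Under quantile normalization Rpl4 was -0.10 between genotypes at day 1, and the cause was not tested.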
